A study of Mus musculus with 4 samples.

Results

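The genes described here are p53 (Trp53) and 9 of its direct targets, namely Mdm2, Ccng1, Bax, Gadd45a, Perp, Trp53inp1, Phlda3, Btg2 and Zmat3, taken with every probe set whose gene symbol is one of these names. Of the 10 genes, 8 had a named probe set, with 13 probe sets of the 22690 on the array, out of 12394 genes with a name in all. No probe set was named for Trp53 or Bax in the annotation used, so their levels are not analysed here. The gene of Sca-1 likewise had no named probe set, and the KO label was not checked against its level. The arrays measured RNA of female, nulliparous mice on the C57BL/6 background, either Sca-1 KO (below KO, without stem cell antigen-1, a surface protein used to mark stem and progenitor cells) or wild-type littermates (WT), matched for age. Mammary glands were taken from 6-week-old mice of either genotype, and mammary tumors likewise from either genotype, which makes 4 groups. The tumors were induced with MP-DMBA, that is 15 mg of the depot progestin MP under the skin and then 4 weekly doses of 1 mg of DMBA by gavage. The sources used here do not give the age of the mice with tumors, and the gland groups' own labels name no carcinogen, although the treatment text is attached to every sample. Each group was 1 RNA pool of 5 mice on 1 Affymetrix array. There were thus no replicates, no test was possible, and every difference below is between 2 arrays, with the number of arrays limiting the precision.

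p53 is a transcription factor that is stabilised after DNA damage. It then raises genes that stop the cell cycle, repair DNA, start apoptosis or limit p53 itself. Mdm2 is the ubiquitin ligase that degrades p53, and it is itself a p53 target, which closes a negative feedback loop. DMBA is a polycyclic hydrocarbon whose metabolites form bulky DNA adducts, and it is a classical inducer of rodent mammary tumors. p53 binds a response element made of a pair of decamers (10-base units), next to each other or a few bases apart.

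The promoter windows of the genes were searched for this element because p53 binds it. The RefSeq promoter table (build GRCm38.p6, 250 bases before to 50 after the start) held 7 of the 10 genes, with no entry for Perp, Trp53inp1 or Zmat3. The window held an exact match to the p53 decamer consensus, which reads the same on both strands, in 5 of the 7, Mdm2, Ccng1, Gadd45a, Bax and Trp53, against 8.36% of all 32851 windows. A pair of decamers 0 to 13 bases apart, with at most 2 mismatches in all and none in the core C and G, lay in 3 of the 7, Ccng1, Gadd45a and Bax, against 4.09% of all windows. Neither was found in the windows of Btg2 and Phlda3, which says only that these letters are not in this window. Of 50 other direct p53 targets, a list used again below, 43 had an entry, with 65 windows. Of these 65 windows 12 held an exact decamer and 7 held a pair. The stretches of the measured genes with a match are shown with the decamers in capitals. That of Cdkn1a, the best known p53 target outside the 10, follows, with a pair that matched without a mismatch. The window of another Cdkn1a start held neither a decamer nor a pair. Where several pairs matched, the capitals mark the one with the fewest mismatches.
Ccng1, chr11:40755442-40755501, minus strand: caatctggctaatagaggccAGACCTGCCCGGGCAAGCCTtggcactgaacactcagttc
Gadd45a, chr6:67037418-67037483, minus strand: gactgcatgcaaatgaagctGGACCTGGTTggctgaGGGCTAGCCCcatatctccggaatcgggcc
Mdm2, chr10:117710915-117710964, minus strand: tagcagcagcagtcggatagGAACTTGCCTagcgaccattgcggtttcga
Cdkn1a, chr17:29090886-29090957, plus strand: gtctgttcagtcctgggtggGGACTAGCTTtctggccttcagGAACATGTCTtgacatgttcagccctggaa
The pair of Ccng1 lay 195 bases before the start with no spacer and 1 mismatch. That of Gadd45a began 56 bases before the start, with a spacer of 6 bases and 2 mismatches. Mdm2 had a single decamer in this window. A match is a description of letters, not a measured binding site.

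Signals are linear intensities. Differences are of log2(signal + 27.3), where 27.3 is an offset that makes differences of dim genes smaller. The probe set of highest mean signal represents its gene, and genes were compared where the highest of the 4 signals reached 168, the median of all values. The 8 represented genes reached it on all 4 arrays, so none of them entered through 1 group alone. Of their 13 probe sets, 12 reached it on at least 1 array. Genes are called higher or lower at 2-fold, a log2 size of 1. Among all 8283 genes compared, tumor and gland differed past 2-fold in 29.4% for WT (12.9% higher and 16.6% lower in tumor) and in 30.2% for KO (12.4% higher and 17.9% lower). KO and WT differed past 2-fold in 1.36% in gland (1.11% higher and 0.254% lower in KO) and in 4.07% in tumor (2.12% higher and 1.94% lower). Centring each array on its median moved the median of all genes from 0.01 to -0.21 for the genotype difference in gland and from -0.04 to 0.31 for tumor against gland in KO, so small differences there depend on the scaling. The 81.4% of calls in gland that were higher in KO became 53% under that centring, 66.0% under quantile normalization and 67.6% under cyclic loess. For tumor against gland in KO the share of higher calls was 40.9%, and 62.1% under that centring. Ratios of 3' to 5' control signal, a sign of RNA quality, were highest in the WT gland for both control genes, at 2.35 for Actb and 1.72 for Gapdh, against 1.23 to 1.61 and 0.768 to 0.988 on the other arrays. The labelled tissue was borne out by epithelial markers on all arrays, with Krt8 between 4987 and 9811. The glands also carried bright adipocyte and skeletal muscle markers. In bulk tissue, fewer cells of a type and less RNA per cell cannot be told apart.

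Of the 8 measured genes, 1 stood far apart between tumor and gland. Perp was 9.67-fold higher in the WT tumor and 8.40-fold higher in the KO tumor, and of the other 7 genes Btg2 alone passed 2-fold by its representing probe set, in KO, where it was 2.07-fold lower. The count was 1 of 8 higher and none lower in WT, and 1 higher and 1 lower (Btg2) in KO. That is 12.5% of the 8 past 2-fold in WT and 25% in KO, both below the 29.4% and 30.2% of all genes. The median difference of the 8 genes was -0.04 in WT and 0.22 in KO, beside -0.03 and -0.04 over all genes. When a gene's probe sets were averaged the KO median turned to -0.25, and without probe sets marked as possibly shared by several transcripts it was -0.31.

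**Figure D1:**
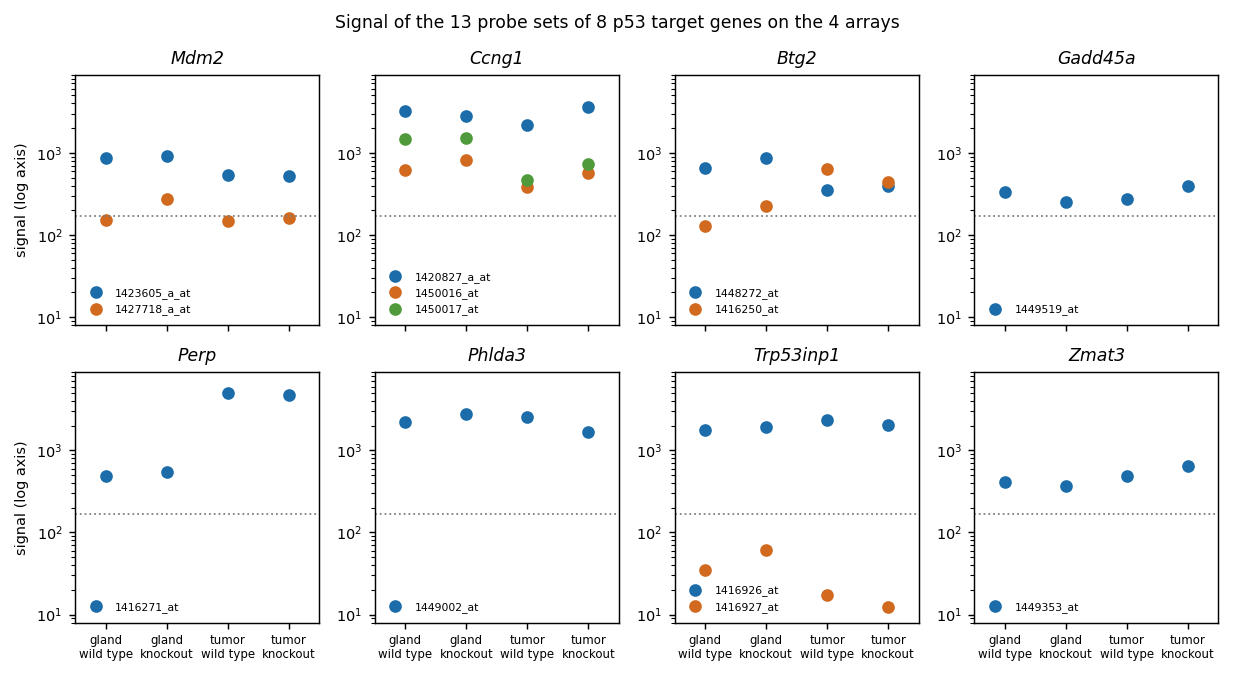
Each panel plots, for 1 gene, the signal (log axis) of each of its probe sets on the 4 arrays, with 1 point per array and the representing probe set in blue. The dotted line is the floor of 168. Perp lies at 487 and 544 in the glands and at 4949 and 4767 in the tumors, while the 2 probe sets of Btg2 cross.

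Perp encodes a tetraspan membrane protein. It was found as an apoptosis effector of p53 and is also a desmosome component of stratified epithelium under the control of p63, the p53 relative of basal epithelial cells. Its single probe set, 1416271_at, had signals of 487 in the WT gland, 544 in the KO gland, 4949 in the WT tumor and 4767 in the KO tumor. Both tumors were thus far above both glands, and the groups of a tissue lay close together. The log2 difference of tumor from gland was 3.27 in WT and 3.07 in KO, and over all alternatives it ranged from 2.97 to 3.40 and from 2.79 to 3.40. By size and sign this was the 64th highest of 8283 genes in WT and the 65th in KO. Between genotypes Perp differed by 0.15 in gland, where centring on the array median turned the sign, and by -0.05 in tumor.

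Basal markers were higher in the tumors, as Perp was. Of 8 basal and myoepithelial markers, 6 were higher in the WT tumor than in the gland and 1 was lower, and in KO 5 were higher and 1 was lower. That is 87.5% and 75% past 2-fold, beside 29.4% and 30.2% of all genes. The summed signal of the 8 basal markers was 8707 and 8689 in the WT and KO gland and 28659 and 27792 in the WT and KO tumor. No marker was below the offset on any array. The near-equal tumor sums hide differences between the tumors, where 37.5% of the 8 were past 2-fold, beside 4.07% of all genes. Myh11 (-1.38) and Cnn1 (-1.19) were lower in the KO tumor, Krt17 (1.28) was higher, and the other 5 were within 2-fold. Trp63, the gene of p63, had signals of 508 and 436 in the glands and 1678 and 1631 in the tumors, a log2 difference of 1.67 in WT and 1.84 in KO. Of 8 compared luminal markers (of 10 listed), 1 was higher in the WT tumor (12.5%, beside 12.9% of all genes). In the KO tumor 4 were higher (50%, beside 12.4% of all genes), and none was lower in either. The luminal list's summed signal was 23178 to 28710 in the glands and 43330 to 48256 in the tumors, with Esr1 below the offset on 3 arrays. Of 6 adipocyte and 8 skeletal muscle markers, all were lower in both tumors. Of 7 macrophage and neutrophil markers 5 were higher in the WT tumor and none lower, and in KO 1 was higher and 1 lower. That is 71.4% and 28.6% past 2-fold, beside 29.4% and 30.2% of all genes. Their summed signals were 8797 and 11913 in the WT and KO gland and 21100 and 15135 in the WT and KO tumor. Fibroblast markers were lower in 4 of 8 in WT (50%) and 5 of 8 in KO (62.5%), and endothelial markers in 4 of 8 (50%) and 6 of 8 (75%). B cell markers were lower in 6 of 7 (85.7%) and 7 of 7 (100%), and T cell markers in 4 of 6 (66.7%) and 6 of 6 (100%). None was higher in these 4 lists. Of all genes 16.6% were lower in the WT tumor and 17.9% in the KO tumor. The part of these cell types in the difference of Perp was not tested.

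Squamous keratinisation markers did not run with Perp across the tumors. Their summed signal was 508.5 and 849.5 in the WT and KO gland, 10467 in the WT tumor and 1527 in the KO tumor. In the KO tumor Krt1, Sprr1b, Lor, Flg, Krtdap and Calm4 were below the offset. Krt6a had a signal of 942 there, beside 1387 in the WT tumor. Of the 10 markers 9 were higher than gland in the WT tumor, and in KO 2 were higher and 1 lower. That is 90% and 30% past 2-fold, beside 29.4% and 30.2% of all genes. In WT 8 of the 10 reached the floor on 1 array only. Perp was nearly as bright in the KO tumor as in the WT tumor. The genes whose pattern over the 4 arrays was most like that of Perp, by root mean square distance of log2 values centred on each gene's mean, were Slpi (0.091), a secreted protease inhibitor of epithelia, Krt5 (0.119), the basal keratin, and Slco1a5 (0.129), an organic anion transporter. Krt5 had signals of 458 and 501 in the glands and 4367 and 5245 in the tumors. A likeness over 4 arrays is a description only.

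**Figure D2:**
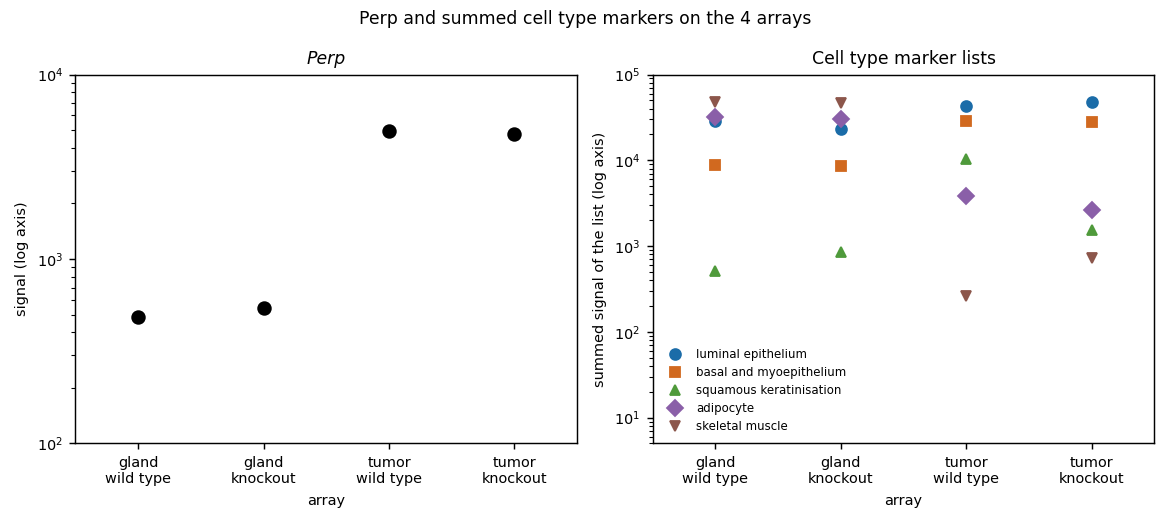
The left panel plots the signal of Perp (log axis) on the 4 arrays, and the right panel the summed signal (log axis) of 5 cell type marker lists, with 1 point per array and list. Perp and the basal list are higher in both tumors. The squamous list is high in the WT tumor (10467) and lower in the KO tumor (1527), beside 508.5 and 849.5 in the glands.

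Mdm2 and Ccng1 belong to the feedback on p53. Mdm2 had signals of 862 in the WT gland, 923 in the KO gland, 531 in the WT tumor and 523 in the KO tumor by probe set 1423605_a_at. Both tumors lay below both glands, by 0.67 on the log2 scale in WT and by 0.79 in KO, which is 1.59-fold and 1.73-fold and within the call size. The genotype difference was 0.09 in gland, with the sign turned by centring on the array median, and -0.02 in tumor. The second probe set of Mdm2, 1427718_a_at, reached the floor on the KO gland array alone, with signals of 150.1, 275, 149.8 and 161 in the same order.

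Ccng1 encodes cyclin G1, which brings the phosphatase PP2A to Mdm2. Its 3 probe sets reached the floor on all arrays. By 1420827_a_at the signals were 3273 and 2821 in the WT and KO gland and 2190.1 and 3576 in the WT and KO tumor. By 1450017_at they were 1462, 1533, 467 and 728 in the same order, and by 1450016_at 618, 822, 381 and 567. All 3 were higher in the KO than in the WT tumor, by 0.70, 0.61 and 0.54 on the log2 scale, or 1.63-fold, 1.53-fold and 1.46-fold. Each is beyond the median size of 0.17 by which 2 probe sets of a gene disagreed in that comparison. Probe sets of a gene share the RNA pool and the array, so this gauge does not cover the spread between mice or pools. In gland the 3 probe sets did not share a sign, at -0.21, 0.07 and 0.40. For tumor against gland all 3 were lower in WT, by 0.57, 1.59 and 0.66, but in KO the values were 0.34, -1.05 and -0.52, so the direction there depends on the probe set. Without probe sets marked in that way Ccng1 is represented by 1450017_at and was past 2-fold in both genotypes.

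Gadd45a and Btg2 act on growth arrest. Gadd45a binds PCNA and p21 and takes part in growth arrest and repair after DNA damage. Its single probe set, 1449519_at, had signals of 333 in the WT gland, 255 in the KO gland, 275 in the WT tumor and 395 in the KO tumor. The KO array was thus the lower of the pair in gland (log2 difference -0.35) and the higher in tumor (0.48), with both under 2-fold. Tumor against gland was -0.25 in WT and 0.58 in KO.

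Btg2, an antiproliferative protein that promotes removal of mRNA tails, gave opposite answers by its 2 probe sets. By 1448272_at, the brighter, the signals were 658 and 855 in the WT and KO gland and 353 and 398 in the WT and KO tumor, so the tumors were lower by 0.85 and 1.05. By 1416250_at the signals were 127, 228, 640.3 and 436 in the same order, so the tumors were higher, by 2.11 in WT and 0.86 in KO. Between genotypes the brighter probe set differed by 0.36 in gland and 0.16 in tumor, and the other by 0.73 and -0.53. Both probe sets are annotated to the same RefSeq transcript. Over all genes with 2 probe sets above the floor, the second had the opposite sign in 76 of 663 genes whose first was past 2-fold in WT. The direction of Btg2 between tumor and gland is therefore unsettled, and the call in KO was lost in 4 of 10 settings, with a value of -0.10 when its probe sets were averaged, -0.73 with median centring, -0.85 with the pooled median as offset and -0.98 with quantile normalization. The genes nearest to Btg2 by its brighter probe set were Procr, Arsa and Zyx, at root mean square distances of 0.019, 0.022 and 0.028, and they carry the same uncertainty.

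Phlda3, Trp53inp1 and Zmat3 have other roles. Phlda3 is a pleckstrin homology protein that restrains Akt. Its probe set 1449002_at had signals of 2226 in the WT gland, 2764 in the KO gland, 2527 in the WT tumor and 1669.7 in the KO tumor, which was the lowest of the 4. Knockout exceeded WT by 0.31 in gland and lay below it by 0.59 in tumor (1.51-fold), the opposite of Gadd45a. Tumor against gland was 0.18 in WT and -0.72 in KO.

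Trp53inp1, a stress protein that promotes p53 activity and autophagy, was the steadiest of the 8. By 1416926_at its signals were 1792, 1908, 2326 and 2050.2 in the WT gland, KO gland, WT tumor and KO tumor, a range of 0.37 on the log2 scale. Its other probe set, 1416927_at, was dim on all arrays, between 12.2 and 61.9. Zmat3, a zinc finger protein that binds RNA, had signals of 412 and 369 in the WT and KO gland and 495 and 644 in the WT and KO tumor by 1449353_at. It was higher in the tumors by 0.25 in WT and 0.76 in KO, both under 2-fold, and past 2-fold in KO under median centring alone among the alternatives run, at 1.09. The sign of Trp53inp1 between KO tumor and gland, 0.10 as deposited, turned with cyclic loess to -0.08 and with averaged probe sets to -0.54.

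Between genotypes none of the 8 genes was past 2-fold in gland, where 1.36% of all genes were, nor in tumor, where 4.07% were. The median difference was 0.09 in gland and 0.07 in tumor, beside 0.01 over all genes in each, and turned to -0.13 in gland with median centring and to -0.01 in tumor with averaged probe sets. The genotype difference in tumor exceeded that in gland by 0.91 for Ccng1, 0.83 for Gadd45a and 0.51 for Zmat3 and fell short of it by 0.90 for Phlda3 (-0.90). None was past 4-fold, as 1.05% of all genes were. By other probe sets the value was 0.14 and 0.55 for Ccng1, -0.68 for Mdm2 and -1.26 for Btg2 (1416250_at), the largest in size among the 12 probe sets that reached the floor, beside -0.20 by the brighter probe set of Btg2.

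**Figure D3:**
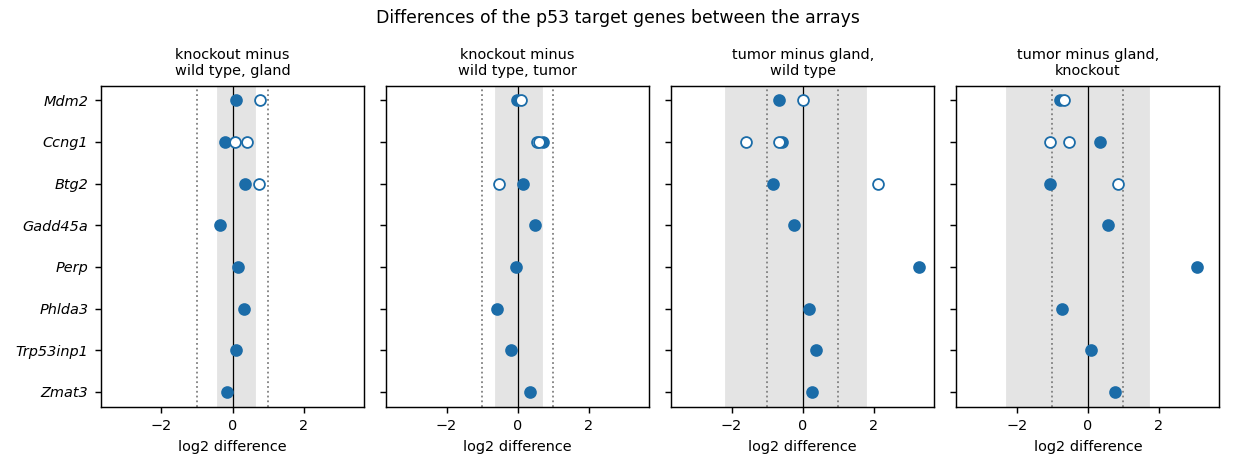
Log2 differences of the 8 genes in the 4 comparisons, with 1 point per probe set above the floor, filled for the representing probe set and open for others. The grey band spans the 5th to 95th percentile of all 8283 genes, and dotted lines mark 2-fold. Perp at 3.27 and 3.07 lies outside the band for tumor against gland, and Btg2 has 1 open point at 2.11.

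A list of 50 other direct p53 targets was set beside these genes. Of these, 46 had a named probe set and 37 were compared. In tumor against gland, 8 were higher, 6 lower and 23 within 2-fold in WT, and 10 higher, 4 lower and 23 within 2-fold in KO. That is 37.8% past 2-fold in each genotype, beside 29.4% and 30.2% of all genes, and the medians were 0.39 and 0.31. Restricting to targets at or above the floor on both arrays left 5 higher and 3 lower of 28 in WT, where 19% of all such genes were past 2-fold, and 6 higher and 3 lower of 30 in KO, where 19.8% were. Both directions were thus found among the targets.

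Igfbp3, a secreted binding protein for insulin-like growth factors, had the largest difference of the list, with signals of 434 and 594 in the glands and 4109 and 5672 in the tumors (3.16 in WT, 3.20 in KO). Dcxr, a carbonyl reductase, was higher by 2.81 and 2.25, and Sfn, the 14-3-3 sigma protein of epithelial cells, by 2.43 and 2.28, its signals of 73.7 and 79.4 in the glands being below the floor. Psrc1, a spindle protein, was higher by 1.73 and 2.72. On the other side Dram1, a lysosomal regulator of autophagy, had signals of 3465 and 2449 in the glands and 559 and 1028 in the tumors, lower by 2.58 and 1.23.

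Cdkn1a, which encodes the cell cycle inhibitor p21, was bright in both tumors. By 1424638_at its signals were 452 in the WT gland, 546 in the KO gland, 1338 in the WT tumor and 1831 in the KO tumor, so tumors were higher by 1.51 and 1.70. By 1421679_a_at the signals were 66.9, 213, 894 and 1062, and the differences 3.29 and 2.18. Both probe sets were past 2-fold in both genotypes. Among the other targets, Pmaip1, Bbc3 and Fas, which have an apoptotic role, differed in both directions. Pmaip1, the BH3-only protein Noxa, differed by 0.61 in WT and 0.75 in KO, within 2-fold, although the KO value was 1.05 or more under each of the 3 other scalings. It reached the floor in the KO tumor alone, at 289. Bbc3, the BH3-only protein Puma, had signals of 191 and 161 in the glands and 25.4 and 94.0 in the tumors. Its log2 difference was -2.05 in WT and -0.64 in KO. The death receptor gene Fas had signals of 308 and 317 in the glands, 61.5 in the WT tumor and 178 in the KO tumor. It differed by -1.92 in WT and -0.75 in KO, so in KO both Bbc3 and Fas were within 2-fold.

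**Figure D4:**
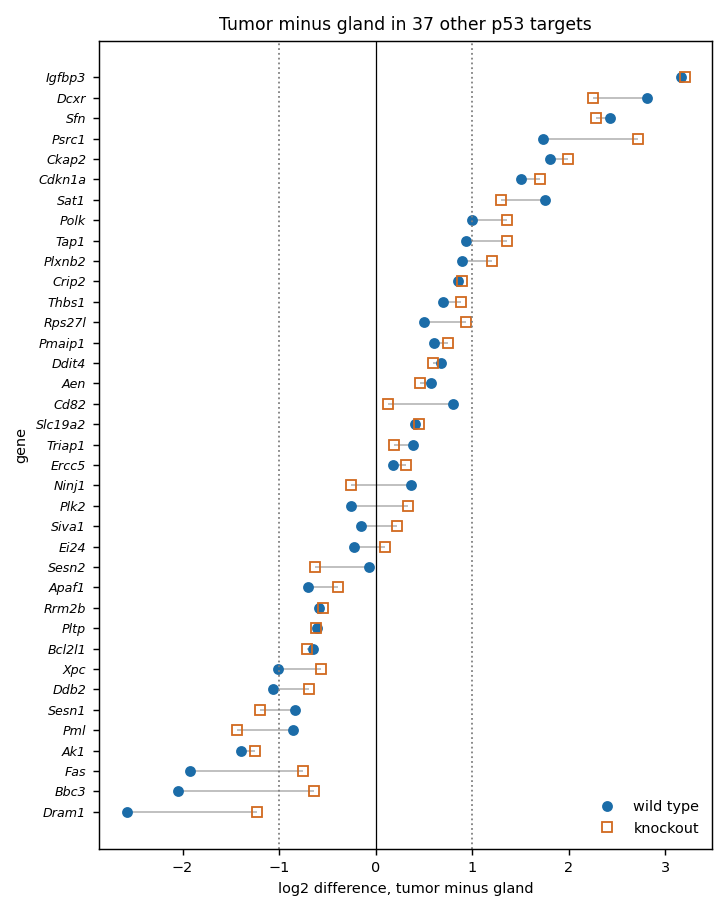
Log2 difference of tumor from gland for the 37 other p53 targets compared, in WT (filled circles) and KO (open squares), with 1 gene per row ordered by the mean of both and dotted lines at 2-fold. Igfbp3 is highest at 3.16 and 3.20, and Dram1 lowest in WT at -2.58.

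In the tumors 4 of the 37 other targets were higher in KO and none lower, beside 2.12% and 1.94% of all genes. They were Fas (1.21), Bbc3 (1.20), the cytoskeleton-associated protein gene Ckap2 (1.18) and Psrc1 (1.07). Bbc3 was below the floor in both tumors, Fas reached it in the KO tumor alone, and with the pooled median as offset none of the 4 was past 2-fold. In gland 1 was higher by its representing probe set, Ckap2 at 1.00 with both signals below the floor (61.5 and 151), and none lower. Under each of the 3 other scalings Ckap2 was within 2-fold there. By 1421679_a_at Cdkn1a was higher in the KO gland by 1.35, from below the floor in WT (66.9 and 213), beside 0.26 by 1424638_at. Psrc1 was higher there by 1.11 by 1425416_s_at, with both signals below the floor (7.8 and 48.3), beside 0.08 by 1417323_at. In gland the result of both genes thus depends on the probe set. Genes of dividing cells, which p53 lowers through p21 and the DREAM repressor complex, lay higher in the KO tumor in 12 of 19 genes compared and lower in none. Of these 12, 6 reached the floor in the KO tumor but not in the WT tumor, and among the 10 genes above it on both arrays 6 were higher, where 2.15% of all such genes were past 2-fold either way. The 4 other targets likewise became 2 of 31 on that restriction. For the 21 named genes of dividing cells the summed signal was 2314 and 3836 in the WT and KO gland. It was 7529 and 17206 in the WT and KO tumor. Lymphocyte markers were also higher in the KO gland. All 7 B cell markers compared were past 2-fold there, with a median of 1.46 and a summed signal of 2444 in the WT gland and 6805 in the KO gland. Of 6 T cell markers 1 was past 2-fold, and the summed signal of that list was 1433 and 2314. In the tumors these sums were 759 and 808 for B cells and 531 and 495 for T cells, in WT and KO. Ckap2 and Psrc1 also belong to dividing cells. The part of dividing cells and of lymphocytes in the values of the p53 targets was not tested.

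**Figure D5:**
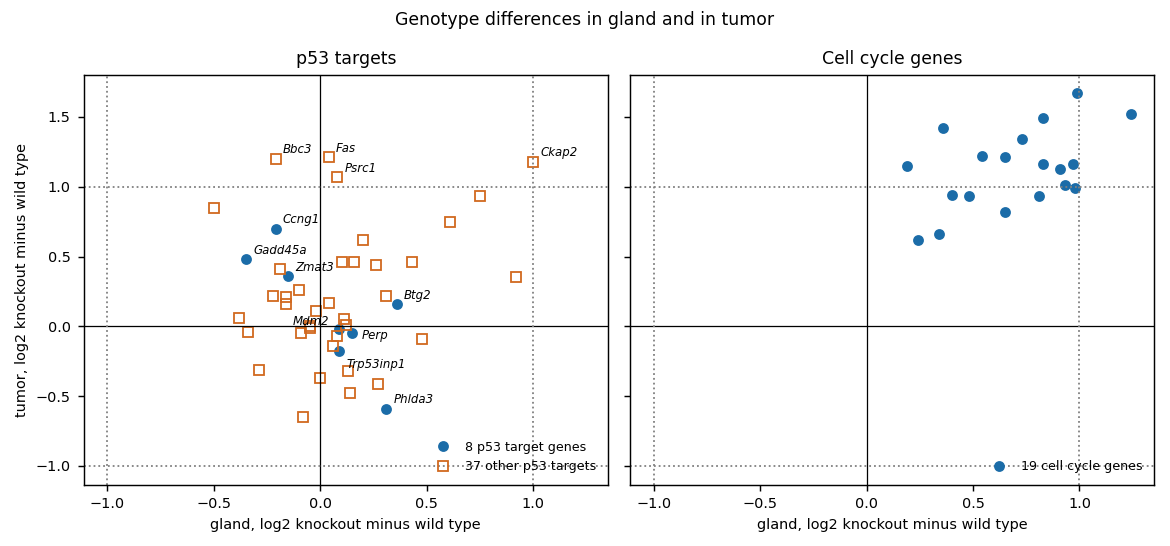
Log2 difference of KO from WT in gland (horizontal) and in tumor (vertical), for the 8 genes and the 37 other p53 targets on the left and for 19 cell cycle genes on the right, with 1 point per gene and dotted lines at 2-fold. The p53 targets scatter around 0, with 4 above 1 in tumor, whereas all 19 cell cycle genes lie above 0 in both tissues, although Kif20a in gland, at 0.19, turned to -0.04 when arrays were centred on their medians and also turned with quantile normalization.

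Regulators of p53 were compared for 22 of the 32 genes listed. Between genotypes none was past 2-fold in either tissue. For tumor against gland 4 were higher and 1 lower in WT, and 3 higher and 1 lower in KO, which is 22.7% and 18.2% past 2-fold beside 29.4% and 30.2% of all genes. Cdkn2a and Atm, among the higher, reached the floor in the tumors alone. Cdkn2a, the locus of p16 and of the Mdm2 inhibitor ARF, was at 19.8 and 8.3 in the WT and KO gland, below the offset, and at 1043 and 716 in the WT and KO tumor. Its log2 difference of 4.51 in WT and 4.38 in KO depends on the offset and ranged over the alternatives from 2.69 to 5.65 and from 2.33 to 6.27. Its single probe set does not settle which transcript of the locus was measured. Mdm4, the Mdm2 relative that blocks p53, had signals of 849 and 900.2 in the glands and 317 and 266 in the tumors, lower by 1.35 and 1.66. Atm, a damage kinase upstream of p53, was higher by 1.05 and 1.13, from below the floor in both glands.

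Relatives did not all follow the genes that were measured. The list also includes relatives of Trp53 and Bax, which had no named probe set, and Trp63 and Mdm4 are also among the regulators. Of 15 relatives compared, 5 were higher and 1 lower for tumor against gland in WT, and 4 higher and 3 lower in KO. That is 40% and 46.7% past 2-fold beside 29.4% and 30.2% of all genes. Phlda1, of the family of Phlda3, had signals of 1114 and 1073 in the glands and 6034 and 5495 in the tumors, higher by 2.41 and 2.33, where Phlda3 differed by 0.18 and -0.72. Gadd45b, a relative of Gadd45a, differed by 1.02 and 0.88 by 1450971_at but by 0.31 and 0.62 by 1449773_s_at, so its call in WT rests on the choice of probe set. Gadd45g, another relative, differed by -0.56 and -0.60.

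Genes for repair and bypass of bulky adducts, the lesions that DMBA leaves, were compared for 22 of 30. Between tumor and gland 22.7% were past 2-fold in WT and 18.2% in KO, beside 29.4% and 30.2% of all genes, with 2 higher and 3 lower in WT and 3 higher and 1 lower in KO. The p53 targets among them went both ways. Xpc and Ddb2, which recognise the damage, were lower in WT by 1.01 and 1.06, values that were within 2-fold under each of the 3 other scalings, and by 0.57 and 0.69 in KO. By its other probe set, 1436680_s_at, Ddb2 was lower by 0.58 in WT and 0.17 in KO. The call of Ddb2 in WT thus also rests on the choice of probe set. Polk, a bypass polymerase, was higher by 1.00 and 1.36 by 1449483_at, and its other probe set, 1419501_at, was below the floor on all arrays. Between genotypes Lig1, the replicative DNA ligase, was higher in the KO tumor, with signals of 244 and 760 (1.54), and the other 21 were within 2-fold.

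Genes of DMBA metabolism were compared for 8 of 12. Between tumor and gland 4 were higher and 2 lower in WT, and 3 higher and 2 lower in KO. That is 75% and 62.5% past 2-fold, beside 29.4% and 30.2% of all genes. Of the 6 above the floor on both arrays 3 were higher and 1 lower in WT, and 2 higher and 1 lower in KO. Of all such genes 19% and 19.8% were past 2-fold. Ahr, the receptor that senses such hydrocarbons, was higher by 1.45 and 1.47, the quinone reductase Nqo1 by 2.29 and 2.12 and the epoxide hydrolase Ephx1 by 1.57 and 1.29. The glutathione transferase Gstm1 was lower by 2.30 and 2.85. Cyp1a1, an inducible activating enzyme, was near background in both tumors at 10.4, and the sources used here do not give the time between the last dose and the RNA.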

How the data were processed

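RNA of 4 groups was hybridised to Affymetrix arrays, 1 pool of 5 mice per array, per the labels' protocols. The authors deposited 1 intensity per probe set and array, on a linear scale. The sources used here do not give the software behind these values. In the file, each array had a mean of 500.1 or 500.2 without its lowest and highest 2% of values, so the authors had scaled the arrays alike. The annotation gave a single gene symbol to 20393 of 22690 probe sets and several to 691, which were left out, and 1606 were unlisted and stay unnamed here. Symbols were updated through the gene identifier for 20364.

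Values were analysed as log2(signal + 27.3), the offset being the lower quartile of all values. The probe set of highest mean represented its gene, which was compared where its highest value reached the median. With 1 array per group no test was made. The 10 genes and all lists were chosen with earlier results of these data known. Named genes are every member; up to 4 genes per list and comparison with the largest differences, without those at background; and the 3 nearest patterns. Cdkn1a, Gadd45b, Gadd45g, Krt8, Krt1, Krt6a, Sprr1b, Lor, Flg, Krtdap, Calm4 and Esr1 were named after their values were seen. The alternatives changed the offset, scaling, floor and choice of probe set, 9 settings in all. On data simulated from the mean gland signals (7415 genes, log2 noise of 0.2 per array), 28 of 50 genes changed 2-fold passed. So did 3 of 50 changed 1.5-fold, 50 of 50 changed 4-fold and 1 of 7215 unchanged genes. The noise was set, not estimated, and no difference in scaling or RNA quality was simulated. These counts thus check the steps and give no error rate of the real arrays. Python 3.11.15, pandas 2.3.3 and limma 3.58.1 were used.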

Additional observations from a re-analysis of the deposited data

Results flagged for a closer look

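The genotype difference of 2 genes had opposite signs in gland and tumor, each beyond the median disagreement between 2 probe sets of a gene (0.24 in gland, 0.17 in tumor). Gadd45a was at -0.35 in gland and 0.48 in tumor, a difference of 0.83. Phlda3 was at 0.31 in gland and -0.59 in tumor, a difference of -0.90. Each gene has 1 probe set and each group 1 array, so the difference was not tested.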

How the results depend on the processing

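No paired analysis was possible because each group is 1 array and the labels give no replicate numbers. Of 144 counts and medians under alternatives, 124 stayed within 1.5 times the reported count, or within the probe set spread of the reported median, and 20 moved. The count of all genes past 2-fold in gland (113) became 51 with the floor on the mean, 36 with the pooled median as offset, 181 with no floor and 221 when the offset was 1. In tumor (337) it became 205 with the floor on the mean and 139 with the pooled median as offset. That offset gave 1484 for tumor against gland in WT (2439) and 1570 in KO (2502). Of the 8 genes, the 2 past 2-fold in KO became 1 with averaged probe sets, with the pooled median as offset and with quantile normalization, and the 1 in WT became 2 without probe sets that may be shared. Their median in KO (0.22) became -0.25 with averaged probe sets and -0.31 without shared ones. Among the other targets the 1 in gland became 0 with cyclic loess, median centring, quantile normalization and the pooled median as offset, which also gave 0 in tumor (4) and 9 in WT (14). Of 360 values of single genes, 345 stayed and 15 moved. With 1 array a group, differences near 2-fold are within what probe set choice, offset and scaling can move, and the spread between mice is unknown.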
